A study of Homo sapiens with 8 samples.

Results

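The genes that carry out microRNA-guided silencing were followed in PANC-1 cells after knockdown of BARD1. They comprise the 4 Argonaute genes (AGO1, AGO2, AGO3 and AGO4), the 3 TNRC6 scaffold genes (TNRC6A, TNRC6B and TNRC6C) and the 3 core genes of microRNA processing (DROSHA, DGCR8 and DICER1). The 10 genes were picked by symbol among the protein-coding entries of the deposited tables, which list 58735 genes, and all 10 were counted well enough to be tested, along with 15287 genes in all. PANC-1 is an established human pancreatic ductal adenocarcinoma line. In 4 libraries the wild-type line had received a scrambled siRNA as control (group siSCR), and in another 4 an siRNA against BARD1 (group siBARD1). Both were harvested after 48 h, and replicates are numbered 1, 3, 4 and 5 in each group. Every library therefore came from cells that had received a small RNA, and the study set out to learn what silencing BARD1, the partner of BRCA1 in repair of broken DNA, changes in these cells. Loss of BARD1 and other effects of the BARD1 siRNA cannot be told apart in this design. Whether replicates came from separate cultures is not stated. The p-values therefore reflect the spread among the libraries at hand, part or all of which may be technical.

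MicroRNAs are cut from a long nuclear transcript by DROSHA with its RNA-binding partner DGCR8, exported, and cut again in the cytoplasm by DICER1. One strand is loaded into an Argonaute protein, which finds messenger RNAs that match the small RNA's seed, and a TNRC6 protein bound to Argonaute recruits the enzymes that shorten the poly-A tail and end translation. Transfected siRNAs use the same Argonaute proteins. Polyadenylated RNA was sequenced here, so the values describe the messenger RNAs of the machinery and not the small RNAs or proteins.

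Libraries held 17816547 to 28590710 counts. BARD1 averaged 19.5 ± 2.33 CPM (a gene's counts as a share of its library, after scaling) in siSCR and 2.997 ± 0.397 in siBARD1 (SD, 4 libraries a group), a 6.48-fold fall (log2 fold change -2.69, SE 0.12, edgeR adjusted p = 7.41e-11), and its siBARD1 values (2.47 to 3.34) lay well below its siSCR values (17.3 to 22.2). All 5 epithelial markers (KRT7, KRT8, KRT18, KRT19 and EPCAM) were present, and their summed level was 4813 to 6772 CPM in siSCR libraries, above the 2766 to 4089 CPM of siBARD1 libraries. Its part in the results was not tested. The 5 leukocyte, 4 endothelial and 5 acinar or endocrine markers each summed to under 1 CPM in every library. Of 5 fibroblast markers DCN and LUM were at 0, while the other 3 (COL1A1, COL3A1 and PDGFRB) averaged at least 1 CPM. The fibroblast markers summed to 86.6 to 128 CPM in siSCR and 81.8 to 91.9 CPM in siBARD1. siSCR replicate 1 stood apart on the second principal component (15.5% of variance), at 31.5, where the other 7 libraries lay between -12.5 and 5.59. In bulk RNA, fewer cells expressing a transcript and less of it per cell cannot be told apart.

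Of the 10 genes, 6 rose in siBARD1 (TNRC6A, AGO4, TNRC6B, DICER1, AGO2 and AGO3), 0 fell and 4 did not pass (AGO1, DROSHA, DGCR8 and TNRC6C), at an edgeR adjusted p under 0.05 over all genes tested. At an unadjusted p under 0.05 DROSHA also lay higher and still none lay lower, and DESeq2 and limma-voom each called the same numbers, 6 higher and 0 lower. Across all genes tested, 38.9% were called in either direction, 18.9% as higher and 20% as lower. Of the called genes 48.6% were higher, and 59.3% with total-count scaling. The median log2 fold change was 0.44 for the 10 genes and 0.00436 for all genes tested. The 4 siBARD1 values lay above all 4 siSCR values for 7 of the 10 genes, the 6 called genes and DROSHA, and for 0 of the 10 they lay below. Among all genes tested, 36.1% did not overlap between the groups, 17.7% with siBARD1 higher and 18.4% with siBARD1 lower. Within each of the 3 sets (Argonaute, TNRC6 and processing genes) at least 1 gene rose and at least 1 did not pass.

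**Figure D1:**
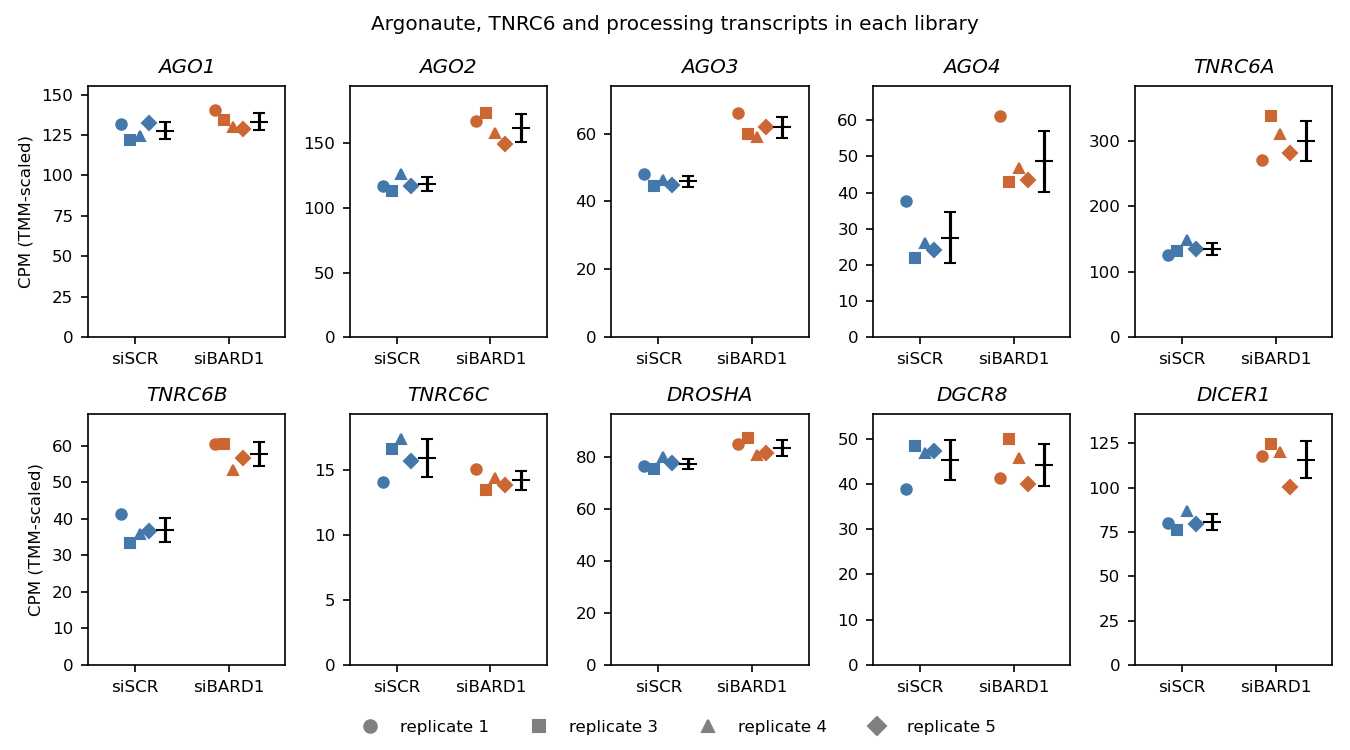
CPM of each gene in each library (y axis, from 0) for siSCR and siBARD1, with the replicate number shown by the marker and the mean and SD of 4 libraries in black. TNRC6A lies at 125 to 148 CPM in every siSCR library and 271 to 338 CPM after BARD1 knockdown, AGO1 and DGCR8 overlap between the groups, and AGO4 is highest in replicate 1 of both groups.

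The TNRC6 family showed both the largest rise and the only negative estimate of more than 0.1 in size. TNRC6A (ENSG00000090905; chromosome 16, 24610209 to 24827632, plus strand, GRCh38), which encodes GW182, the founding member of the scaffold family, stood at 125, 132, 148 and 135 CPM in siSCR replicates 1, 3, 4 and 5. In siBARD1 replicates 1, 3, 4 and 5 it stood at 271, 338, 311 and 281 CPM. The lowest siBARD1 library was thus well above the highest siSCR library. The mean went from 135 ± 9.61 in siSCR up to 300.2 ± 30.5 CPM in siBARD1 (SD over 4 libraries a group), a log2 fold change of 1.15 (SE 0.07, 95% confidence interval 1.0 to 1.3, edgeR adjusted p = 8.53e-09). TNRC6A was the only one of the 10 to change at least 2-fold. Of all genes tested, 320 (2.09%) were both called and changed at least 2-fold, and 68 called genes rose by more than TNRC6A.

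TNRC6B (ENSG00000100354; chromosome 22, 40044817 to 40335808, plus strand), a paralog with the same scaffold role, stood at 41.3, 33.5, 35.8 and 36.7 CPM in siSCR and at 60.5, 60.5, 53.4 and 56.7 CPM in siBARD1. These groups did not overlap. Its log2 fold change was 0.65 (SE 0.07, interval 0.50 to 0.79, adjusted p = 1.61e-06 in edgeR). TNRC6C (ENSG00000078687; chromosome 17, 77959240 to 78108835, plus strand), the remaining paralog, averaged 15.9 ± 1.43 CPM in the siSCR libraries against 14.2 ± 0.708 CPM after BARD1 knockdown (SD over 4 libraries a group). The groups overlapped through siSCR replicate 1, the lowest siSCR library at 14.03 CPM, and the log2 fold change was -0.16 (SE 0.09, interval -0.35 to 0.02, edgeR adjusted p = 0.148). Without siSCR replicate 1 it passed the threshold as lower (-0.22, edgeR adjusted p = 0.0450). 12.9% of the exonic bases of TNRC6C overlap an annotated gene on the opposite strand, TNRC6C-AS1, and whether the libraries kept strand is not stated.

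By length-scaled level, TNRC6A made up most of the TNRC6 messenger RNA in every library. FPKM are the authors' counts scaled by library total, a further factor per library, and the summed length of all annotated exons of a gene. That length can exceed the length of the transcript expressed. In FPKM the 3 transcripts summed to 12.97 to 14.7 in siSCR and 25.1 to 30.2 in siBARD1. TNRC6A supplied 76.1% ± 1.23 of that sum in siSCR and 84.7% ± 1.57 in siBARD1 (SD, n = 4 each). The share of TNRC6B went from 13.5% ± 1.69 to 10.6% ± 1.08 although its level rose, and that of TNRC6C from 10.4% ± 0.613 to 4.69% ± 0.565. The ranges of all 3 shares did not overlap between the groups, though the lowest TNRC6B share in siSCR (12.1%) lay close to the highest in siBARD1 (11.9%).

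Among the Argonautes, AGO4, AGO2 and AGO3 rose and AGO1 did not pass. AGO4 (ENSG00000134698; chromosome 1, 35808172 to 35857890, plus strand), which binds small RNAs but is not known as an efficient slicer, had the largest change of the family and the widest spread. It stood at 37.8, 22.0, 26.1 and 24.2 CPM in siSCR and at 61.2, 43.0, 46.7 and 43.6 CPM in siBARD1, in the order of replicates 1, 3, 4 and 5. The groups did not overlap, and replicate 1 was the highest library in each. Its log2 fold change was 0.81 (SE 0.19, interval 0.37 to 1.252, adjusted p = 0.0111 in edgeR), and with single libraries left out it ranged from 0.68 without siBARD1 replicate 1 to 1.01 without siSCR replicate 1. Interferon-stimulated genes, a list of 10, were also highest in replicate 1 of each group. They summed to 271 CPM in siSCR replicate 1 and 115 to 156 CPM in the other siSCR libraries, and to 159 CPM in siBARD1 replicate 1 and 103 to 142 CPM in the other siBARD1 libraries. Of the 9 of them tested, 0 changed in edgeR or DESeq2 and 1 had an unadjusted p under 0.05, and their part in the AGO4 values was not tested.

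AGO2 (ENSG00000123908; chromosome 8, 140520156 to 140635619, minus strand), the Argonaute that cuts fully matched targets and so executes siRNA-guided cleavage, stood at 117, 113, 126 and 117 CPM in siSCR. In siBARD1 it stood at 167, 174, 158 and 149 CPM, each above every siSCR library. The log2 fold change was 0.45 (SE 0.05, interval 0.34 to 0.57, edgeR adjusted p = 5.80e-06). AGO3 (ENSG00000126070; chromosome 1, 35930718 to 36072500, plus strand) went from 46.0 ± 1.61 CPM, with all siSCR libraries between 44.5 and 48.1, to 61.9 ± 3.17 CPM, with all siBARD1 libraries between 59.2 and 66.2 (SD, n = 4 each). This is a log2 fold change of 0.43 (SE 0.06, adjusted p = 1.53e-05 in edgeR). AGO1 (ENSG00000092847; chromosome 1, 35869808 to 35930528, plus strand), the most abundant Argonaute transcript in siSCR by FPKM, ranged over 122 to 132 CPM with the scrambled siRNA and 129 to 140.3 CPM with the BARD1 siRNA. Only 2 siBARD1 libraries lay above all siSCR libraries, the log2 fold change was 0.06 (SE 0.05, edgeR adjusted p = 0.326), and its interval of -0.04 to 0.16 covered 0.

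The summed Argonaute level was 22.5 ± 1.33 FPKM in siSCR and 29.2 ± 1.94 FPKM in siBARD1 (SD, n = 4 each), with no overlap. AGO1 supplied 39.0% to 42.6% of the siSCR sum and 31.4% to 33.6% of the siBARD1 sum. AGO2 supplied 33.1% ± 2.05 and 34.8% ± 1.91, ranges that overlapped. With the lower AGO1 share, AGO2 was above AGO1 by FPKM in every siBARD1 library and below it in every siSCR library. The gap was small in siBARD1 replicate 5, at 34.1% for AGO2 and 33.6% for AGO1. AGO4 supplied 16.6% ± 3.23 and 22.6% ± 2.54, and AGO3 supplied about the same share in both groups, 9.62% ± 0.272 and 9.94% ± 0.458.

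**Figure D2:**
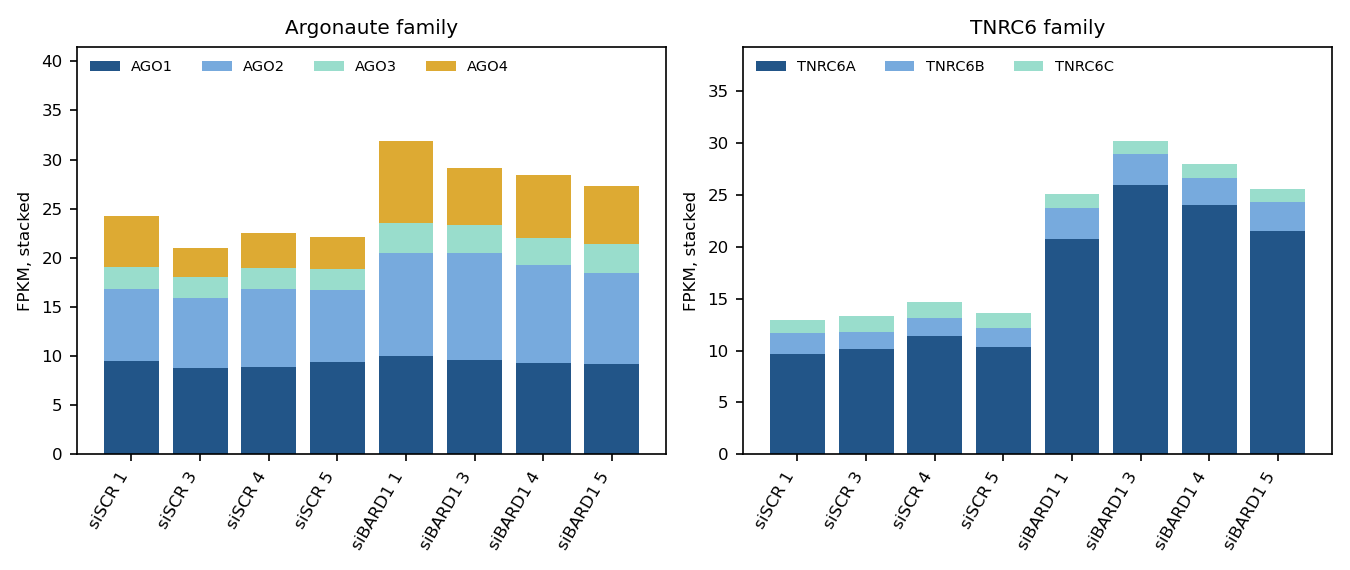
Authors' FPKM of each Argonaute (left) and TNRC6 (right) transcript, stacked per library (y axis, from 0), for siSCR and siBARD1 replicates 1, 3, 4 and 5. The TNRC6 sum is 12.97 to 14.7 FPKM in siSCR and 25.1 to 30.2 FPKM in siBARD1, most of the difference being TNRC6A, while AGO1 stays at about the same height in every bar.

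Of the processing genes, only DICER1 rose. DICER1 (ENSG00000100697; chromosome 14, 95086228 to 95158010, minus strand), the ribonuclease that releases the mature microRNA duplex, stood at 80.2, 75.9, 86.5 and 79.2 CPM in siSCR and at 118, 125, 119.8 and 100.5 CPM in siBARD1. The groups did not overlap, although siBARD1 replicate 5 lay below the other siBARD1 libraries. The log2 fold change was 0.52 (SE 0.06, interval 0.39 to 0.66, edgeR adjusted p = 7.55e-06). DROSHA (ENSG00000113360; chromosome 5, 31400497 to 31532196, minus strand), the nuclear ribonuclease, ranged over 75.6 to 80.2 CPM with the scrambled siRNA and 80.8 to 87.4 CPM with the BARD1 siRNA. These ranges did not overlap, but the difference was small and did not pass (log2 fold change 0.11, SE 0.05, edgeR adjusted p = 0.0827). It passed with total-count scaling (0.16, edgeR adjusted p = 0.0160) and with upper-quartile scaling (0.15, adjusted p = 0.0224).

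DGCR8 (ENSG00000128191; chromosome 22, 20080232 to 20111877, plus strand), the partner that positions DROSHA on the hairpin, stood at 38.8, 48.3, 46.8 and 47.3 CPM in siSCR and 41.2, 49.9, 45.6 and 39.9 CPM in siBARD1. The groups overlapped, with siSCR replicate 1 the lowest of all 8 libraries. The log2 fold change was -0.03 (SE 0.08, interval -0.21 to 0.14, edgeR adjusted p = 0.785), and its sign turned with total-count scaling, with upper-quartile scaling and without siBARD1 replicate 5. DGCR8 also shares 2.37% of its exonic bases with the microRNA genes MIR3618 and MIR1306 on its own strand and 7.22% with genes on the opposite strand. The Microprocessor made of DROSHA and DGCR8 is known to cut the DGCR8 messenger RNA at such a hairpin.

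**Figure D3:**
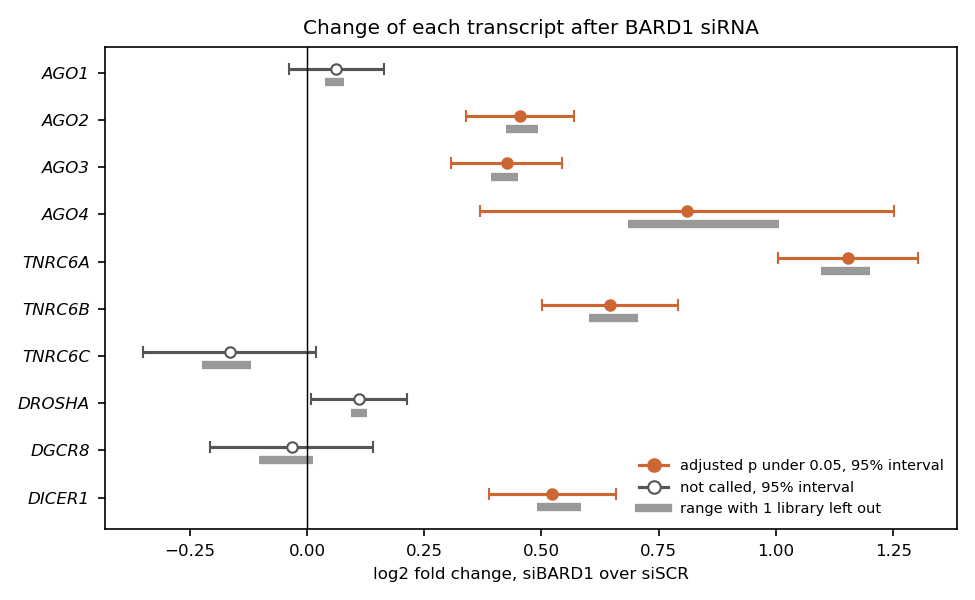
log2 fold change of siBARD1 over siSCR for the 10 genes (x axis), with the 95% confidence interval of the edgeR estimate and, in grey, the range of estimates when each library was left out in turn. The intervals of TNRC6A, AGO4, TNRC6B, DICER1, AGO2 and AGO3 lie above 0, and TNRC6A at 1.15 is farthest from it.

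Whether genes of the same set (Argonaute, TNRC6 or processing) changed unequally was tested on the ratio of their counts within each library. Such a ratio does not depend on how libraries are scaled. The processing genes form a set by role and not as paralogs. For 12 pairs within the 3 sets, the mean log2 ratio was compared between siBARD1 and siSCR. The difference was tested by exact two-sided permutation over 70 assignments (smallest possible p 0.0286) and adjusted over the 12 pairs. 8 pairs passed, each with an exact permutation p of 0.0286, an adjusted p of 0.0429 and no overlap between the groups. The log2 ratio of TNRC6A to TNRC6C went from 3.09 ± 0.07 to 4.40 ± 0.20 (SD, n = 4 each), a difference of 1.31, and that of TNRC6B to TNRC6C rose by 0.81 and that of TNRC6A to TNRC6B by 0.50. The ratio of AGO1 to each other Argonaute fell, by 0.77 to AGO4, by 0.39 to AGO2 and by 0.36 to AGO3 on the log2 scale. The ratio of DGCR8 to DICER1 fell by 0.56, and that of DROSHA to DICER1 fell by 0.41. The 4 pairs that did not pass were AGO2 to AGO3 (a difference of 0.03, SE 0.07), AGO3 to AGO4 (-0.41, SE 0.17), AGO2 to AGO4 (-0.38, SE 0.21) and DROSHA to DGCR8 (0.15, SE 0.10), with adjusted exact permutation p from 0.114 to 0.743. With 12 pairs, the adjusted p can pass only while several pairs reach the smallest p together, and without siBARD1 replicate 3 none of the 8 did (adjusted exact permutation p 0.0571 to 0.0857). The AGO1 to AGO4 ratio also missed the threshold without siBARD1 replicates 1, 4 or 5 (adjusted exact permutation p 0.0857 each) and TNRC6A to TNRC6B without siSCR replicate 1 (0.0686), while AGO3 to AGO4 passed without siSCR replicate 1 (-0.55, adjusted exact permutation p 0.0429).

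In siSCR the length-scaled order was TNRC6A (10.4 FPKM), DROSHA (9.91), AGO1 (9.14), AGO2 (7.43), DICER1 (6.51), DGCR8 (6.16), AGO4 (3.77), AGO3 (2.16), TNRC6B (1.83) and TNRC6C (1.42 FPKM). The ranges over libraries overlapped for only 2 neighbours in this order, TNRC6A with DROSHA and DICER1 with DGCR8. In siBARD1 TNRC6A (23.1 FPKM) stood alone at the top, with its lowest library at 20.8 FPKM and the highest DROSHA library at 11.1 FPKM. DROSHA, AGO2, AGO1 and DICER1 followed between 10.7 and 9.33 FPKM, with each range overlapping the next. AGO4 (6.64 FPKM) was then above DGCR8 (5.99 FPKM), with overlapping ranges, and TNRC6C (1.27 FPKM) was again last.

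The 7-base sequence CTACCAG was examined because an earlier look at these data had tied it to transcripts that fell. Copies were counted on the transcript strand of the annotated form with the longest 3′ UTR. Of the 10 called protein-coding genes that fell most, 10 carry it, and of the 10 that rose most, 1 does. The sequence came from these same data, so these counts are no test of it. Among the 10 silencing genes, 5 carry it (2 copies each in AGO1, AGO2 and AGO3 and 1 each in AGO4 and DICER1), compared with 24.2% of 12722 protein-coding transcripts. In the 3′ UTR 4 of the 10 carry it, compared with 8.1%. The 3′ UTRs of the 10 are long, with a median of 4278 bases against 1358.5 for all those searched. Of the 5 genes with a copy, 4 rose and AGO1 did not pass, and TNRC6A and TNRC6B, which rose, have no copy. The copies outside AGO2 are shown with 8 bases on each side and the sequence in capitals.
AGO1, coding: gaaaaggaCTACCAGcctgggat
AGO1, 3′ UTR: tttttttcCTACCAGcaaaacaa
AGO3, 3′ UTR, copy 1: tcccagtcCTACCAGtgacattc
AGO3, 3′ UTR, copy 2: gtagttacCTACCAGagggcaat
AGO4, 3′ UTR: gtggtcttCTACCAGcagctcgg
DICER1, 3′ UTR: tggaaaacCTACCAGtggggtgt

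DICER1 is itself known as a target of let-7, the microRNA family that its enzyme helps to make, and LIN28B, which blocks let-7 maturation, rose here. The match to the let-7 seed, CTACCTC, was therefore also counted, a choice made after the values were seen. DICER1 had 4 copies, all in the coding sequence, where 10 of the 12722 transcripts (0.079%) have 4 or more. The cut-off of 4 is the count of DICER1, which is itself among the 10. Length was not taken into account, and the DICER1 transcript has 10277 bases, 4270 of them in the 3′ UTR. AGO2 had 2 copies and AGO1 and AGO3 1 each in the 3′ UTR, AGO3 a further copy and TNRC6C 2 in the coding sequence, and the other 5 transcripts had none. Of the genes with a match, DICER1, AGO2 and AGO3 rose, and AGO1 and TNRC6C did not pass. Of those without a match, TNRC6A, TNRC6B and AGO4 rose, and DROSHA and DGCR8 did not pass. 11.2% of the 12722 transcripts hold the match in the 3′ UTR and 13% in the coding sequence. The DICER1 copies are shown with the match in capitals, beside the mature let-7a of RefSeq (GRCh38.p14) with its seed, bases 2 to 8, in capitals. Small RNAs were not measured, and a match is a description of the letters only. A link between LIN28B, let-7 and the DICER1 level was not tested.
hsa-let-7a-5p: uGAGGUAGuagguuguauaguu
DICER1 coding, match 1: actgtgttCTACCTCttaatgtt
DICER1 coding, match 2: gcaaccaaCTACCTCatattcca
DICER1 coding, match 3: taacaaatCTACCTCagatggaa
DICER1 coding, match 4: attttggaCTACCTCataaccaa

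Partner genes were called in both directions. Of 51 partner genes tested from 8 lists by role, 11 rose, 15 fell and 25 did not pass in edgeR, with a median log2 fold change of -0.05. Of all genes tested 18.9% were called higher, close to the share of these partners, and 20% lower, somewhat below theirs, and the difference was not tested. The smaller lists that follow are to be read against the same shares. Microprocessor cofactors went down or did not pass: of 10, 6 fell and 0 rose in edgeR, with the same counts in DESeq2 and at an unadjusted p under 0.05. KHSRP, which promotes processing of some precursors, averaged 293 ± 12.9 CPM in siSCR and fell to 220.5 ± 7.60 CPM (SD over 4 libraries a group; log2 fold change -0.41, SE 0.05, edgeR adjusted p = 3.92e-06), and HNRNPA1, which binds and helps cut the miR-18a precursor, had -0.41 (SE 0.06). The genes of precursor export were RAN, the GTPase that drives it (-0.27, SE 0.05, edgeR adjusted p = 3.47e-04), and its carrier XPO5 (-0.08, SE 0.04), which did not pass. HNRNPA1, RAN and the heat shock genes have many near-identical pseudogenes, so their counts are less certain.

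Among 4 Dicer partners and RNA editors 2 rose and 0 fell in edgeR, in DESeq2 and at an unadjusted p under 0.05. TARBP2, which holds the substrate for Dicer, rose from 45.0 ± 4.15 to 55.9 ± 1.36 CPM (log2 fold change 0.31, SE 0.06, SD over n = 4 each, edgeR adjusted p = 8.86e-04), and the editing enzyme ADARB1 had 0.19 (SE 0.07). Of 7 chaperones that help load Argonaute, 3 fell and 0 rose in edgeR, and 4 were lower and 0 higher in DESeq2 and at an unadjusted p under 0.05. The largest edgeR falls were in HSP90AB1 (-0.39, SE 0.05, edgeR adjusted p = 1.02e-05) and the co-chaperone FKBP4 (-0.37, SE 0.06). Of 12 Argonaute-bound and silencing cofactors, 3 rose and 3 fell, near the shares of all genes tested (18.9% higher and 20% lower). MOV10, a helicase that binds Argonaute, averaged 78.5 ± 6.65 CPM in siSCR and rose to 105 ± 6.07 CPM (SD over 4 libraries a group; log2 fold change 0.42, SE 0.06, edgeR adjusted p = 5.10e-05) and FXR1, an RNA-binding protein related to FMRP, had 0.27 (SE 0.04). AJUBA (-0.65, SE 0.10) and LIMD1 (-0.32, SE 0.06), LIM-domain proteins that link Argonaute to the cap-binding complex, fell.

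Of 5 tested genes of precursor tailing and let-7 control, 2 rose and 0 fell in edgeR and DESeq2, and 3 were higher and 0 lower at an unadjusted p under 0.05. LIN28B averaged 19.1 ± 0.911 CPM in siSCR and rose to 32.0 ± 2.46 CPM (SD over 4 libraries a group; log2 fold change 0.74, SE 0.07, edgeR adjusted p = 6.84e-07), and the poly-A polymerase TENT2 had 0.22 (SE 0.06). LIN28A, the paralog of LIN28B, and TRIM71 had too few counts to be tested. Among 10 decapping and decay effectors, which act on the messages that TNRC6 proteins have marked, 4 rose and 1 fell, where 38.9% of all genes tested were called in either direction. DCP2, the decapping enzyme, averaged 85.4 ± 7.29 CPM in siSCR and rose to 144 ± 7.82 CPM (SD over 4 libraries a group; log2 fold change 0.76, SE 0.06, edgeR adjusted p = 6.87e-08), and XRN1, the exonuclease that follows it, had 0.33 (SE 0.07). DCP1A, the activator of DCP2, fell from 28.9 ± 1.85 to 18.8 ± 2.56 CPM (-0.62, SE 0.09). Of 4 PIWI genes, the germline relatives of the Argonautes, only PIWIL4 had enough counts to be tested, and it fell from 2.29 ± 0.238 to 1.41 ± 0.172 CPM (SD over 4 libraries a group; -0.70, SE 0.19, edgeR adjusted p = 0.00850).

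**Figure D4:**
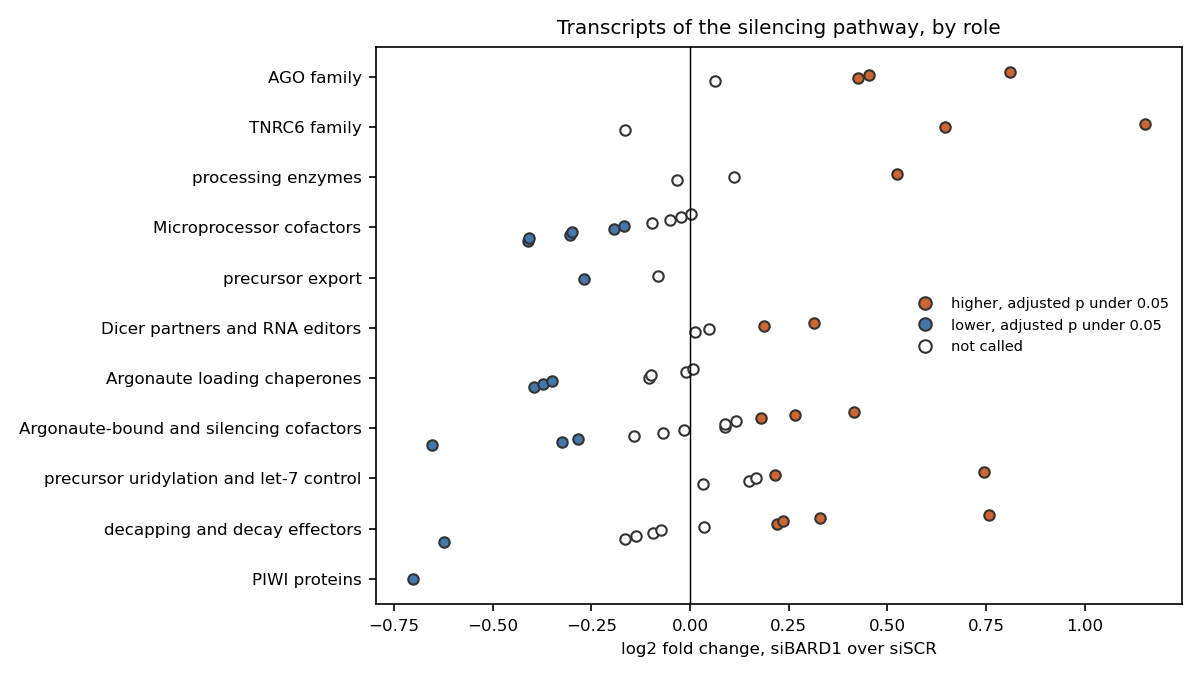
log2 fold change of siBARD1 over siSCR (x axis) for each tested gene of the silencing pathway, 1 row per role, filled where the edgeR adjusted p was under 0.05. The Argonaute, TNRC6 and processing genes lie mostly to the right, with TNRC6A at 1.15, while 6 of 10 Microprocessor cofactors are filled on the left.

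AGO4, AGO1 and AGO3 lie side by side on chromosome 1 in the same orientation, with 11917 bases between AGO4 and AGO1 and 189 bases between AGO1 and AGO3. The outer genes AGO4 and AGO3 rose, and the middle gene AGO1 did not pass. The ratio of AGO1 to each of them passed above with all libraries. Without siBARD1 replicate 3 neither ratio passed (adjusted exact permutation p 0.0857 to AGO4 and 0.0571 to AGO3). Of the 8 other genes tested within 200 kb of the cluster, 0 rose and 3 fell in edgeR, in DESeq2 and at an unadjusted p under 0.05, about the 38.9% of all genes tested that were called in either direction. C1orf216 had a log2 fold change of -0.37 (SE 0.06), ADPRHL2 of -0.18 (SE 0.06) and MAP7D1 of -0.18 (SE 0.04), while CLSPN (-0.13, SE 0.07), PSMB2 (0.07, SE 0.05), THRAP3 (0.05, SE 0.05), TRAPPC3 (-0.0019, SE 0.06) and COL8A2 (-0.18, SE 0.23) did not pass.

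**Figure D5:**
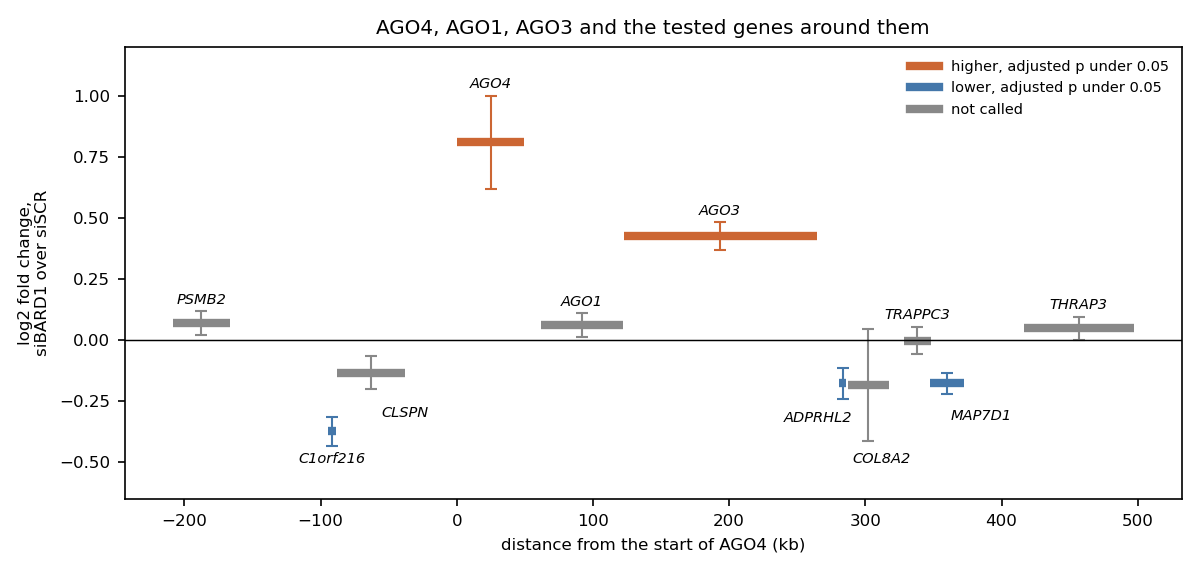
log2 fold change of siBARD1 over siSCR (y axis, with the SE) for the genes tested around the Argonaute cluster, drawn at their distance in kb from the start of AGO4 (x axis), each bar as long as its gene. AGO4 at 0.81 and AGO3 at 0.43 stand above all other genes of the window, with AGO1 at 0.06 between them.

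The genes whose profile over the 8 libraries was nearest to that of TNRC6A were taken from 10424 protein-coding genes with a mean of at least 5 CPM. Each profile was set relative to its own siSCR mean on the log2 scale, and likeness was the root mean square difference. They were YOD1, a deubiquitinating enzyme (0.08), HMGA2, a chromatin-binding protein (0.11), the kinase HIPK3 (0.13), DDAH1, which breaks down methylated arginine (0.13), and FBXL2, an F-box protein (0.13). Their log2 fold changes were 1.15, 1.03, 1.24, 1.11 and 1.07, next to 1.15 for TNRC6A. The likeness includes the difference between the groups by its construction.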

How the data were processed

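The authors deposited whole-number read counts per gene and FPKM values per gene for 8 libraries. The tools named per the submitters' processing notes are featureCounts, HISAT2 (2.0.5) and fastp. The notes name GRCh37 and hg19, but all 58735 genes in the tables have the starts and ends of GENCODE 29 on GRCh38, which is used here. Per the labels' protocols, RNA was poly-A selected, and strandedness is not stated. The deposited FPKM matched counts divided by length and library total, up to a factor that is fixed within a library. This factor was 0.993 to 1.03 in siSCR and 0.970 to 0.983 in siBARD1.

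Counts were tested with edgeR (4.0.16, R 4.3.3): default low-count filter, TMM scaling, a robust quasi-likelihood test between the groups with no covariate, and Benjamini-Hochberg adjustment over 15287 genes. Standard errors were the log2 fold change over the square root of F. CPM use TMM-scaled totals. Totals of 17816547 to 28590710 counts limit low transcripts most. No library repeated another: chi-square per gene within groups was 4.26 to 17.7. Ratios were tested by exact permutation. Alternatives were other scalings and filters, DESeq2 (1.42.0), limma-voom and limma (3.58.1) on log2(FPKM + 1) or log2(FPKM + 0.1), leaving out each library, and a block by replicate number. The 10 genes and all lists were chosen with earlier results of these data known. Partner genes were named as at most 2 called changes in each direction per list.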

Additional observations from a re-analysis of the deposited data

Results flagged for a closer look

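DGCR8 in siSCR replicate 1, at 38.8 CPM, lay farther below the other 3 siSCR libraries (46.8 to 48.3 CPM) than a gap test for single outlying values allows at the 95% level. It was the only one of 22 groups of 4 values tested for the 10 genes and BARD1, and chance alone gives about 1 in 20. Within siSCR the same library was also highest for AGO4, AGO3 and TNRC6B and lowest for TNRC6A and TNRC6C, and no cause was tested.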

How the results depend on the processing

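Over 18 alternatives, the 6 called genes kept their direction and their side of the threshold, and 6 or 7 of the 10 genes were called. TNRC6A ranged from 1.08 to 1.2 and AGO4 from 0.68 to 1.01 (edgeR, DESeq2 or limma adjusted p up to 0.0421). Leaving out single libraries gave 5124 to 6344 genes called, 6 to 7 of the 10 genes called and 6 to 6 called higher. DROSHA passed with total-count or upper-quartile scaling, and TNRC6C without siSCR replicate 1. Of all called genes, 48.6% were higher in the main analysis and 59.3% with total-count scaling. The estimate for DGCR8 turned to 0.015 with total-count scaling, 0.0042 with upper-quartile scaling and 0.012 without siBARD1 replicate 5, and leaving out single libraries gave -0.10 to 0.012. The ratio of AGO2 to AGO3 turned to -0.0024 without siSCR replicate 1 and -0.023 without siBARD1 replicate 3, in a range of -0.023 to 0.067 over single libraries left out. The cause of these turns was not tested.

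With the replicate number as a block, 6604 genes were called instead of 5946, and 6 of the 10 genes. AGO4 had 0.83 (SE 0.06, edgeR adjusted p = 1.49e-08). Without the block the SE of AGO4 was 0.19. Deviations of same-numbered libraries correlated at 0.14, 0.13, 0.03 and -0.03, and 2 of 4 siSCR libraries correlated best with their own number. These few values cannot decide whether same-numbered libraries were handled together, which is not stated. A sign-flip test of the ratios in 4 pairs cannot give a p below 0.125. Ratios from FPKM equal those from counts by construction.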
